A study of Mus musculus with 3 samples.

Results

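The genes of glycolysis and the genes induced by low oxygen were followed in stroma cells sorted from mouse tumours. The set was given as 32 gene symbols, 17 for enzymes of the glycolytic pathway and 15 for other hypoxia-induced genes. A symbol was measured where a probe set (the group of array probes that reads a transcript) carried that symbol alone, and the brightest such probe set stood for the gene. This gave 28 of the 22087 named genes on the array, 14 enzymes and 14 hypoxia-induced genes. The probe sets annotated with Aldoa and Ankrd37 named a further gene each and were left out, and Gpi1 and Eno1 were not analysed here.

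Total RNA was taken from enzymatically digested tumours after sorting live cells that carried neither PECAM1, a surface protein of endothelium, nor tdTomato, the fluorescent label of the tumour cells. All 3 samples were Dicer1 +/- stroma, with 1 Affymetrix array each, and are called samples 1, 2 and 3 after their titles. The labels name no treatment, age, transgene driver or pooling, and whether each sample is a different animal is not stated, which means that part of the spread may be technical. Dicer1 +/+ stroma was not analysed here, so no contrast of genotypes was possible, and with 1 group no test between groups was run.

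Values are log2 intensities, on which a difference of 1 is 2-fold. Probes differ in brightness, so levels were compared between samples for 1 gene and never between genes. A gene was called detected where it lay above the 95th percentile of 1438 olfactory, vomeronasal and taste receptor probe sets on every array, a level of 5.16, 5.11 and 5.20 in samples 1 to 3. Pearson's r between pairs of arrays was 0.956 to 0.965 across 13636 genes detected on at least 1 array, and genes are not independent replicates. Dicer1 itself was at 8.10, 8.10 and 8.08. Sample 1 stood apart in Xist, at 9.78 against 3.43 and 3.49, and in the Y-linked Kdm5d, at 3.67 against 7.03 and 7.50. Y-linked Eif2s3y was at 3.86 against 8.51 and 8.71. Sample 1 thus had the pattern of female cells and samples 2 and 3 that of male cells, so sample 1 came from another animal or animals. Sex cannot be told apart from other differences between sample 1 and the rest. Markers of fibroblasts, of macrophages and monocytes, and of neutrophils were each detected in 12 of 12 genes, against 66.9% of protein-coding genes. Endothelial markers were detected in 6 of 9 (66.7%), near that share. Pecam1 was among them, at 8.02, 7.20 and 8.25, although the gate removed PECAM1-bearing cells. The source of this RNA was not tested.

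Glycolysis splits glucose into pyruvate and yields ATP without oxygen, and lactate dehydrogenase then turns pyruvate into lactate so that the pathway can continue. When oxygen is scarce, the prolyl hydroxylases that mark the HIF alpha subunits for destruction lose activity, and HIF dimers accumulate and switch on glucose transporters, most glycolytic enzymes and a set of other targets. In tumours the same genes are active in hypoxic regions, in dividing cells and in activated myeloid cells, and neutrophils rely largely on glycolysis.

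HIF dimers recognise a short core sequence, ACGTG or GCGTG, and these letters were looked for on either strand in the 250 bases upstream of the first listed RefSeq start of each gene (build GRCm38.p6). Of the 28 measured members 25 had an entry, with none for Slc2a3, Ndrg1 or Epas1. ACGTG occurred in 14 of 25 windows (56.0%), against 16.6% of 27025 genes in the table, and GCGTG in 11 of 25 (44.0%), against 28.2%. Either core was found in 10 of 14 enzyme windows and in 11 of 11 windows of hypoxia-induced genes, against 38.6% of all. The members' windows held a median of 13 CG pairs and all windows a median of 6, and each core contains a CG pair. ACGTG is part of CACGTG, the E-box bound by MYC and other factors, which 4 of the 25 windows held (16.0%, against 6.05% of all). A match describes the letters and does not show a bound site, and the arrays carry no binding data.

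Windows are printed for 5 members that had ACGTG and, for contrast, for Pkm, which had neither core. They are Slc16a3 (chr11:120948817-120949066, plus strand), Slc2a1 (chr4:119108495-119108744, plus strand), Pgk1 (chrX:106186850-106187099, plus strand), Ldha (chr7:46845554-46845803, plus strand), Egln1 (chr8:124949255-124949504, minus strand) and Pkm (chr9:59656326-59656575, plus strand). Each runs 5′ to 3′ towards the start, and capitals mark ACGTG or its reverse complement CACGT.
Slc16a3: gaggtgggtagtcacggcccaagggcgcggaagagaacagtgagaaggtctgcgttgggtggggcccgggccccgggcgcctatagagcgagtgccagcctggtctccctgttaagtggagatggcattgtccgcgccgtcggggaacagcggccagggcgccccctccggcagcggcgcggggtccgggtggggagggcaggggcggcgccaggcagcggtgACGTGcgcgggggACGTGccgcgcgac
Slc2a1: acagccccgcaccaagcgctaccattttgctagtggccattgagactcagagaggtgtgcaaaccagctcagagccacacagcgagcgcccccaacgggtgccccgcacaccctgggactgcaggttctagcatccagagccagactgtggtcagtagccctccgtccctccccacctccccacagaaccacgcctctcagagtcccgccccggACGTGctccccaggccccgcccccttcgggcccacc
Pgk1: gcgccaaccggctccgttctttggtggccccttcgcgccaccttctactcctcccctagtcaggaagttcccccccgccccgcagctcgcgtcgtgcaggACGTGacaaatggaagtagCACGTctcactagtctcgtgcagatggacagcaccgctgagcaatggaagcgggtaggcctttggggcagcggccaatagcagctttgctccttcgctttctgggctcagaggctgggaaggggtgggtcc
Ldha: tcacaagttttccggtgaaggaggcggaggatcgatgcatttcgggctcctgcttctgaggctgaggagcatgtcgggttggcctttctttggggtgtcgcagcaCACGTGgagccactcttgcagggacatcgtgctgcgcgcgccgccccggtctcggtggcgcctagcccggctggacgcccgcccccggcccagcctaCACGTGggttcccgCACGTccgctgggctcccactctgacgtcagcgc
Egln1: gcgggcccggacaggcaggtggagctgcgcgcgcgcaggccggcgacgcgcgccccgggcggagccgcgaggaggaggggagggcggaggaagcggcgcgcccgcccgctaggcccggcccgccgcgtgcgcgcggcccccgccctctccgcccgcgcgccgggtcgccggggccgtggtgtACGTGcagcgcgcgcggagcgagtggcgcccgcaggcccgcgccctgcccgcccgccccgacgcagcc
Pkm: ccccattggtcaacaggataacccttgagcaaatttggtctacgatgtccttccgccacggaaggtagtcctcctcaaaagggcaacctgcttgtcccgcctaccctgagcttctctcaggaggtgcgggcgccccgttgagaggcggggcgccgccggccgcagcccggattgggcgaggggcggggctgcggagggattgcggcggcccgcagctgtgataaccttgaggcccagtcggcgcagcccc

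Slc16a3 had 2 matches, at 27 and 14 bases before its start, and Slc2a1 had 1 at 36. Pgk1 carried 2 in opposite orientation, at 150 and 131 bases. Ldha held 5 overlapping or neighbouring matches, 4 of them inside a pair of E-boxes. Egln1 had 1 match at 68 bases in a window with 51 CG pairs.

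**Figure D1:**
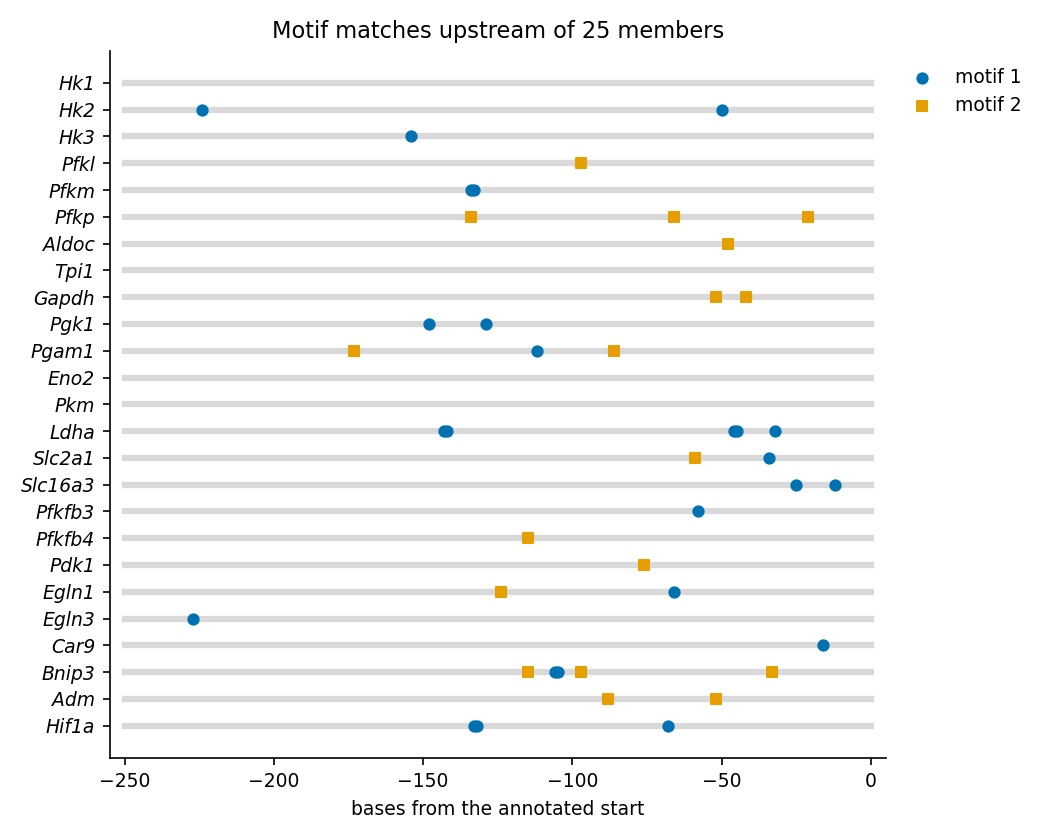
Position of ACGTG (motif 1, circles) and GCGTG (motif 2, squares), either strand, in the 250 bases upstream of the first RefSeq start of 25 members; the x axis is the distance from the start in bases. Only Hk1, Tpi1, Eno2 and Pkm have neither motif in this window.

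Nearly all measured enzymes of the pathway were detected in the stroma, and most of them were at their highest in sample 3. Of 14 measured enzymes 13 were detected on every array (92.9%), against 60.5% of 20658 named genes without the receptor genes and 66.9% of protein-coding genes. In 11 of 14 the highest value was that of sample 3, where 32.8% of all genes detected on at least 1 array had theirs. The lowest value was that of sample 2 in 6 of 14 (29.4% of all genes), of sample 1 in 4 (31.2%) and of sample 3 in 3 (33.3%), with sample 1 and 2 tied in Hk2. No enzyme had a range over the 3 samples above 1, and 5.7% of all genes had. Among the 13 detected enzymes the range was 1.13-fold for Eno2 to 1.66-fold for Hk3.

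The hexokinases trap glucose in the cell by phosphorylating it, and all 3 measured isoforms were highest in sample 3. Hk1, the widely expressed isoform, was at 6.99, 6.94 and 7.13 in samples 1 to 3 (mean 7.02 ± 0.096, SD, n = 3). Hk2, the isoform induced by HIF, was at 7.75, 7.75 and 8.30 (mean 7.93 ± 0.32, SD, n = 3). Samples 1 and 2 had identical Hk2 values, as did at least 1 pair of arrays in 10.8% of genes, so this SD may understate the spread. Hk3, the isoform of myeloid cells, was at 6.70, 7.20 and 7.44 (mean 7.11 ± 0.37, SD, n = 3), with sample 1 apart and lowest.

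Phosphofructokinase makes the committing step, and its 3 subunit types were not all detected here. The platelet-type subunit Pfkp was at 8.76, 8.70 and 9.13 (mean 8.86 ± 0.24, SD, n = 3). The liver-type subunit Pfkl, at 6.67, 6.71 and 6.99 (mean 6.79 ± 0.18, SD, n = 3), likewise had samples 1 and 2 close together and sample 3 above them. The muscle-type Pfkm was the enzyme that failed detection: at 5.14, 5.23 and 5.09 it passed the receptor level in sample 2 alone, so its differences carry no weight. Aldolase cleaves the hexose, and its isoform Aldoc, known from brain, was at 5.48, 5.34 and 6.05 (mean 5.62 ± 0.37, SD, n = 3), not far above the receptor level in samples 1 and 2.

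In the lower pathway Tpi1, Gapdh, Pgk1, Pkm and Ldha were highest in sample 3, while samples 1 and 2 stood in either order. Tpi1, which interconverts the triose phosphates, was at 8.96, 9.08 and 9.37 (mean 9.14 ± 0.21, SD, n = 3). Gapdh, which oxidises glyceraldehyde phosphate and often serves as a reference gene, was at 11.38, 11.45 and 11.63 (mean 11.48 ± 0.13, SD, n = 3). Its second probe set gave the same order, at 10.84, 10.89 and 11.05, while the third lay below the receptor level on all 3 arrays. Pgk1, an X-linked kinase that makes ATP, was at 9.60, 9.51 and 9.94 (mean 9.69 ± 0.23, SD, n = 3). Pkm, the pyruvate kinase of most tissues, was at 10.60, 10.57 and 11.25 (mean 10.81 ± 0.39, SD, n = 3), so that samples 1 and 2 differed by 0.028 and sample 3 exceeded sample 1 by 0.65. Ldha, the lactate dehydrogenase subunit favoured in glycolytic cells, was at 6.29, 6.26 and 6.70 (mean 6.42 ± 0.25, SD, n = 3), again with samples 1 and 2 nearly equal.

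Pgam1 and Eno2 were not highest in sample 3. Pgam1, a phosphoglycerate mutase, was highest in sample 2, at 6.66, 7.07 and 6.62 (mean 6.78 ± 0.25, SD, n = 3). Eno2, the enolase typical of neurons, was at 5.63, 5.56 and 5.46 (mean 5.55 ± 0.087, SD, n = 3), with sample 3 the lowest. Processed copies of Gapdh, Pgam1, Ldha, Tpi1 and Pgk1 exist elsewhere in the genome, and probes that match them could add to these signals.

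Over the 14 enzymes, the median difference from each gene's own mean was -0.12, -0.078 and 0.25 in samples 1 to 3. Across 12508 genes detected on all arrays these medians were -0.0050, 0 and -0.0013. Without sample 3 the enzyme ranges were 0 to 0.14, apart from Hk3 at 0.49 and Pgam1 at 0.42. Counting only leads of more than 0.2 over both other samples left 9 of 14 enzymes highest in sample 3, against 14.9% of genes.

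**Figure D2:**
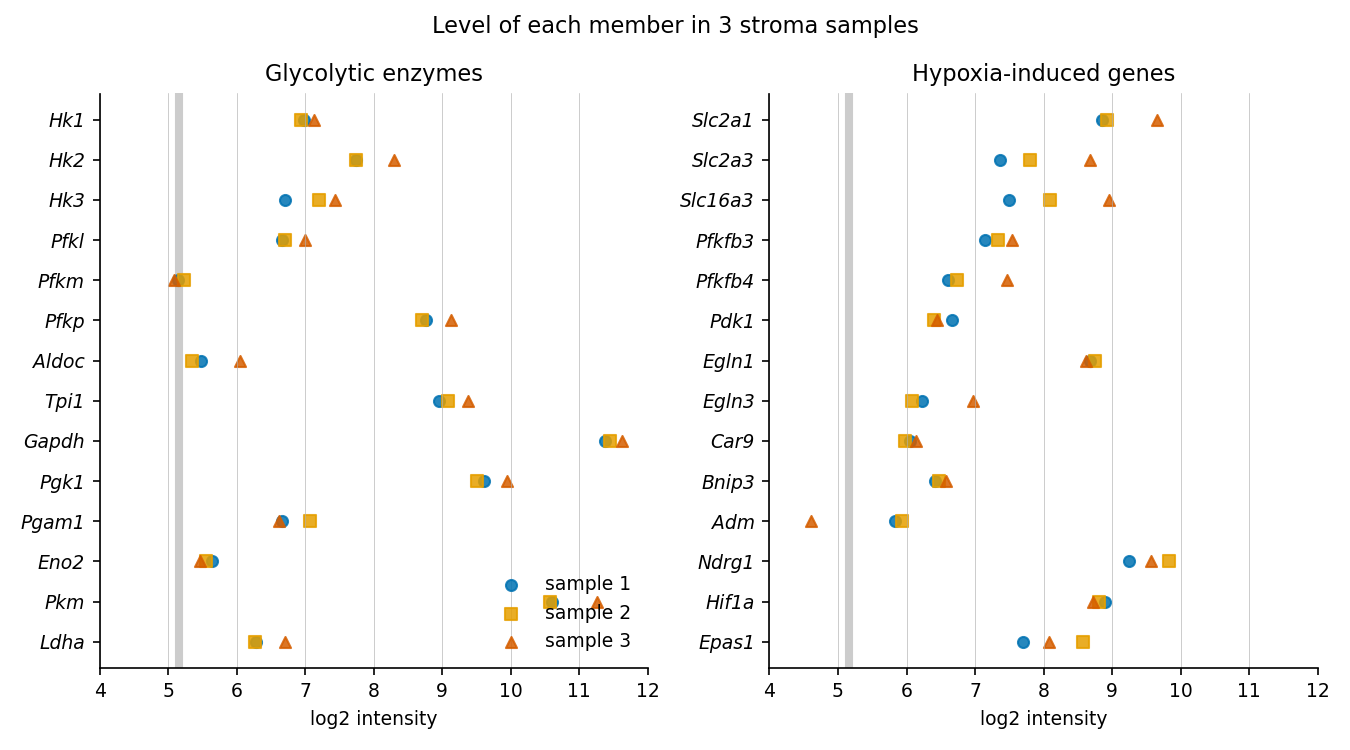
Log2 intensity (x axis) of the 14 measured glycolytic enzymes and 14 measured hypoxia-induced genes in samples 1 (circles), 2 (squares) and 3 (triangles); each point is 1 array and the grey band spans the receptor level of the 3 arrays, 5.11 to 5.20. Sample 3 lies to the right of the others for 11 enzymes and 8 hypoxia-induced genes, and far to the left for Adm.

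Among the hypoxia-induced genes, Slc2a1, Slc2a3, Slc16a3, Pfkfb3, Pfkfb4, Egln3, Car9 and Bnip3 were highest in sample 3, the last pair by less than 0.2. Detection on all arrays was found for 13 of 14 (92.9%), against 60.5% of named genes, the exception being Adm. Sample 3 was the highest in 8 of 14 (32.8% of all genes), sample 2 in 4 (32.5%) and sample 1 in 2 (28.8%), and sample 1 was the lowest in 8 (31.2%). A lead of sample 3 above 0.2 was present in 6 of 14, against 14.9% of all genes detected on at least 1 array. The median difference from each gene's mean was -0.20, -0.046 and 0.086 in samples 1 to 3, and with the mean over members in place of the median it was -0.18, 0.0061 and 0.17. Averaging each gene's probe sets moved the sample 3 median to 0.16. Leaving out sample 2 gave 0.17 and leaving out sample 1 gave 0.066. Both were measured from the mean over the 2 samples left, so they are not on the scale of the 3-sample medians. A range above 1 was found for Slc2a3, Slc16a3 and Adm, and for the first 2 alone among members detected on all arrays (4.86% of all genes so detected). Without sample 3 none of the 14 had such a range and 1.84% of all genes had, and without sample 1 only Adm did, with 3.49% of all genes.

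The transporters of glucose and lactate among the members, Slc2a1, Slc2a3 and Slc16a3, were all highest in sample 3. Slc2a1, the glucose transporter GLUT1, was at 8.86, 8.92 and 9.65 (mean 9.14 ± 0.44, SD, n = 3), and a dimmer probe set gave 5.71, 5.71 and 6.38. Slc2a3, the high-affinity glucose transporter GLUT3, was at 7.37, 7.80 and 8.67 (mean 7.95 ± 0.67, SD, n = 3), a 2.48-fold range. Slc16a3, the lactate exporter MCT4, was at 7.49, 8.09 and 8.96 (mean 8.18 ± 0.74, SD, n = 3), a 2.76-fold range. Sample 2 exceeded sample 1 by 0.43 for Slc2a3, 0.60 for Slc16a3 and 0.063 for Slc2a1, and sample 3 exceeded sample 2 by 0.88, 0.87 and 0.73. Without sample 3 the ranges were 0.43 for Slc2a3 and 0.60 for Slc16a3.

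Pfkfb3 and Pfkfb4 set the level of fructose 2,6-bisphosphate, the activator of phosphofructokinase. Pfkfb3 was at 7.14, 7.33 and 7.55 (mean 7.34 ± 0.20, SD, n = 3). Pfkfb4 was at 6.60, 6.73 and 7.47 (mean 6.94 ± 0.47, SD, n = 3), with samples 1 and 2 close and sample 3 apart. Pdk1, the kinase that shuts pyruvate dehydrogenase and so keeps pyruvate out of mitochondria, went another way, at 6.67, 6.41 and 6.44 (mean 6.50 ± 0.14, SD, n = 3).

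Of the oxygen sensors and HIF subunits, Hif1a and Egln1 had ranges under 0.2, while Egln3 and Epas1 had ranges near those of Pfkfb4 and Slc2a1. Hif1a was at 8.89, 8.81 and 8.71 (mean 8.81 ± 0.089, SD, n = 3), lowest in sample 3, and its dimmer probe set was highest in sample 2, at 6.21, 6.40 and 6.28. HIF-1 alpha is regulated mainly through protein stability, which arrays do not measure. Epas1, which encodes HIF-2 alpha and is known from endothelium, fibroblasts and macrophages, was at 7.71, 8.57 and 8.08 (mean 8.12 ± 0.44, SD, n = 3), and without sample 2 its range was 0.37 in place of 0.87. The prolyl hydroxylase Egln1 (PHD2) was at 8.68, 8.76 and 8.62 (mean 8.68 ± 0.071, SD, n = 3). Egln3 (PHD3), itself a HIF target, was at 6.22, 6.08 and 6.96 (mean 6.42 ± 0.47, SD, n = 3), a range of 0.88 against 0.14 for Egln1.

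The remaining targets had no common order. Car9, a carbonic anhydrase of the cell surface widely used as a hypoxia marker, was at 6.06, 5.98 and 6.14 (mean 6.06 ± 0.079, SD, n = 3). Its dimmer probe set was at 4.69, 4.89 and 5.24 and passed the receptor level on 1 array. Bnip3, which promotes removal of mitochondria, was at 6.41, 6.47 and 6.58 (mean 6.49 ± 0.087, SD, n = 3), and both genes therefore lay within 1.13-fold over the samples. Ndrg1, a stress-responsive gene, was at 9.24, 9.82 and 9.57 (mean 9.55 ± 0.29, SD, n = 3), highest in sample 2, whereas its second probe set was highest in sample 3, at 7.56, 7.98 and 8.15. Adm, which encodes the vasodilator adrenomedullin, was at 5.84, 5.94 and 4.61 (mean 5.46 ± 0.74, SD, n = 3). Its value in sample 3 lay below the receptor level, from which sample 2 differed by 0.74, so the measured range of 1.33 is only approximate. The direction of Adm was opposite to that of Slc2a1, Slc2a3 and Slc16a3.

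**Figure D3:**
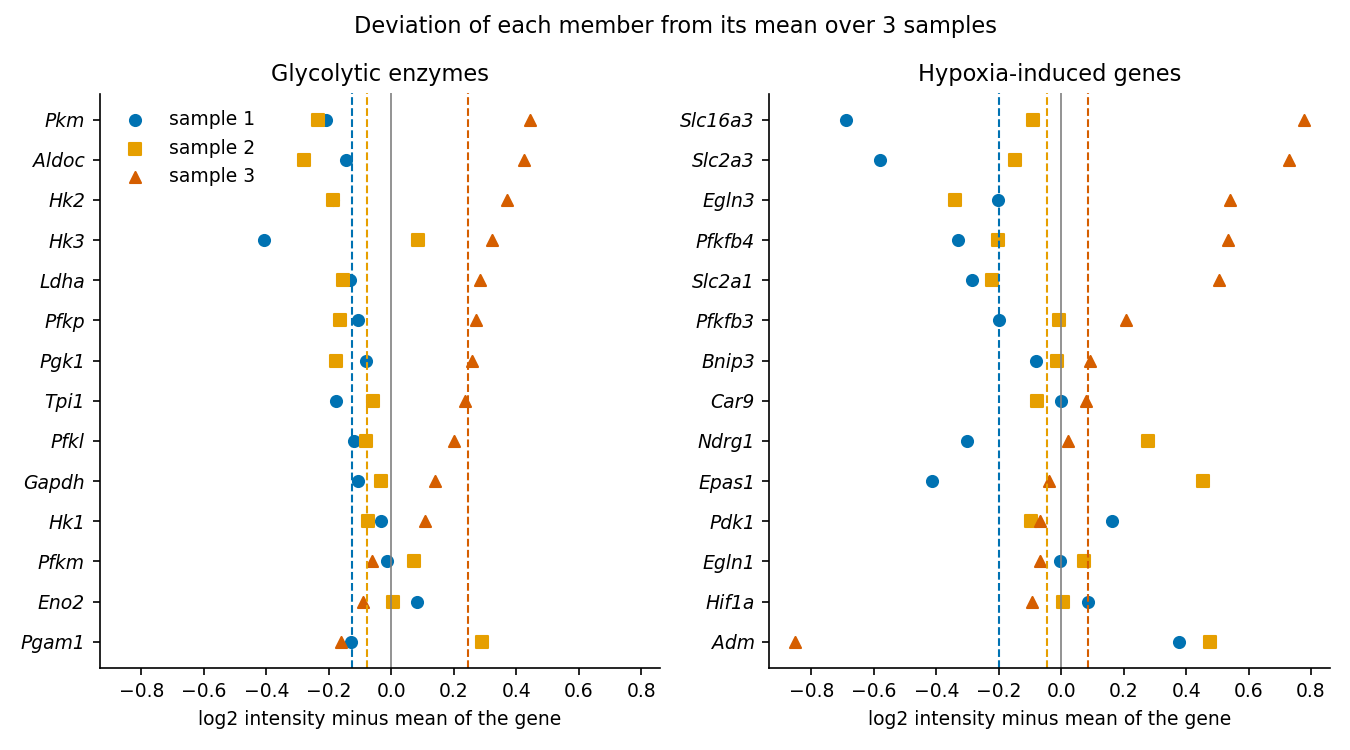
Difference of each member's log2 intensity from its mean over the 3 samples (x axis), genes ordered by the lead of sample 3; circles, squares and triangles are samples 1, 2 and 3 and dashed lines the list medians. The enzyme medians are -0.12, -0.078 and 0.25, and the hypoxia-induced medians -0.20, -0.046 and 0.086.

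The members were also set against all detected genes. The median range was 0.43 for the enzymes and 0.68 for the hypoxia-induced genes, and 0.31 over all 13636 genes detected on at least 1 array. Among members detected on all arrays, Slc16a3 stood at percentile 98.1 of all ranges and Slc2a3 at 97.4, while Egln1 stood at 19.5 and Car9 at 22.4.

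**Figure D4:**
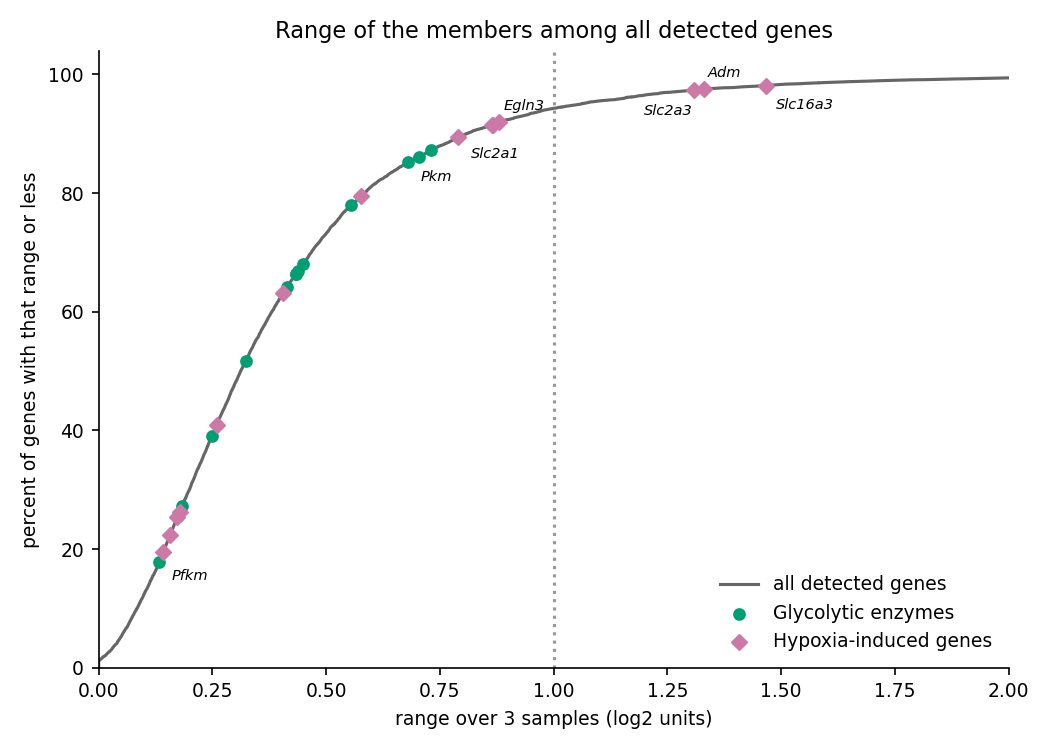
Cumulative distribution of the range over 3 samples (x axis, log2 units) for 13636 genes detected on at least 1 array (grey line), with the enzymes (circles) and hypoxia-induced genes (diamonds) placed on it; the dotted line marks a range of 1. Slc2a3, Adm and Slc16a3 lie beyond it and all enzymes lie below it.

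ACGTG was present in 10 of 18 windows of members highest in sample 3 (55.6%) and in 4 of 7 windows of the others (57.1%). It was present in 16.6% of all 27025 windows. The 2 groups of members thus had nearly the same share, and 7 windows are few. Slc2a3, Ndrg1 and Epas1 had no window and are not counted.

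Related lists were then placed beside the members. Of all genes detected on at least 1 array, 32.8% were highest in sample 3. The share lowest in sample 1 was 31.2% and that lowest in sample 3 was 33.3%. Genes of glycogen turnover were highest in sample 3 in 5 of 9 and lowest in sample 1 in 7 of 9, among them Pygl, the liver-type glycogen phosphorylase, at 8.50, 9.19 and 9.79 with a range of 1.29. In the pentose phosphate pathway 4 of 6 genes were highest in sample 3, and among further glycolytic isoforms 6 of the 9 detected on at least 1 array, of 11 measured. Gluconeogenic genes gave 2 of 4 so detected, of 7 measured, and further glucose transporters 2 of 5, of 9 measured. Genes that decide the fate of pyruvate leaned the other way, with 8 of 13 lowest in sample 3. None of the genes of these last 5 lists that were detected on at least 1 array had a range above 1.

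Further HIF targets did not single out sample 3. Of 24 genes detected on at least 1 array 10 were highest there (32.8% of all genes) and 10 in sample 2 (32.5%). Over all 26 measured the medians were -0.090, 0.052 and 0.039. Vegfa, the vascular growth factor, was at 7.93, 8.08 and 8.64, and Ero1a, an oxidase of protein folding, at 8.75, 8.87 and 9.48. P4ha1, a collagen prolyl hydroxylase, was at 8.02, 8.06 and 7.78. Lox, which cross-links collagen, was the gene of this list with a range above 1, at 9.34, 9.75 and 8.60, lowest in sample 3 as the fibroblast markers were. The regulators of HIF had medians of -0.012, -0.036 and 0.0093 over 13 genes, whose ranges ran from 0.037 for Arnt2 to 0.78 for Eloc in different directions, the last chosen after its values were seen. Arnt, the shared dimer partner, was at 8.76, 8.89 and 8.78. Respiratory chain and citrate cycle genes had medians of -0.012, -0.013 and 0.0085 over 18 genes.

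The samples also differed in markers of the cells they held, and in bulk RNA fewer cells of a type and less RNA per cell cannot be told apart. Neutrophil markers were highest in sample 3 in 11 of 12 genes, against 32.8% of all genes detected on at least 1 array. Their medians were -0.40, -0.019 and 0.36 and their summed linear intensity 25171, 28931 and 35206. Csf3r, the receptor for G-CSF, was at 8.62, 9.04 and 9.83, while S100a8 was at 12.47, 12.43 and 12.43, lowest in sample 3. The order of sample 1 below 2 below 3 was shown by 4 of the 14 enzymes and 6 of the 14 hypoxia-induced genes. It was shown by 9 of the 12 neutrophil markers and by 16.4% of all genes detected on at least 1 array. Cartilage and bone markers had it in 6 of 6 genes, with medians of -0.64, 0.063 and 0.71 and a sum of 1220, 2207 and 3425. Dendritic cell markers were highest in sample 3 in 6 of 7 (medians 0.0087, -0.45 and 0.49), endothelial markers in 7 of 9 (-0.24, -0.25 and 0.50), mature muscle fibre markers in 6 of the 8 detected on at least 1 array (-0.21, -0.20 and 0.52 over 10), myogenic markers in 6 of 9 (-0.00065, -0.22 and 0.22) and cell division genes in 7 of 9 (0.043, -0.21 and 0.20).

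Fibroblast markers ran against the enzymes, with medians of 0.077, 0.41 and -0.51 and a sum of 18031, 23603 and 12044. They were lowest in sample 3 in 12 of 12 genes, against 33.3% of all genes detected on at least 1 array. Pericyte and smooth muscle markers were lowest there in 8 of 10 (medians -0.091, 0.59 and -0.46). Macrophage and monocyte markers were lowest there in 8 of 12 (0.17, 0.20 and -0.38). In that list 2 genes were highest in sample 3, Ccr2 at 10.15, 9.91 and 10.18 and Ly6c2 at 11.35, 11.40 and 11.65. Lymphocyte markers were highest in sample 1, as were 28.8% of all genes. This held for 7 of 7 T cell genes (0.89, -0.83 and 0.16) and 7 of 7 B cell genes (1.57, -0.86 and -0.39). Erythroid medians were -0.0053, 0.14 and -0.024 over 4 genes. The part of these cell types in the differences of the members was not tested.

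**Figure D5:**
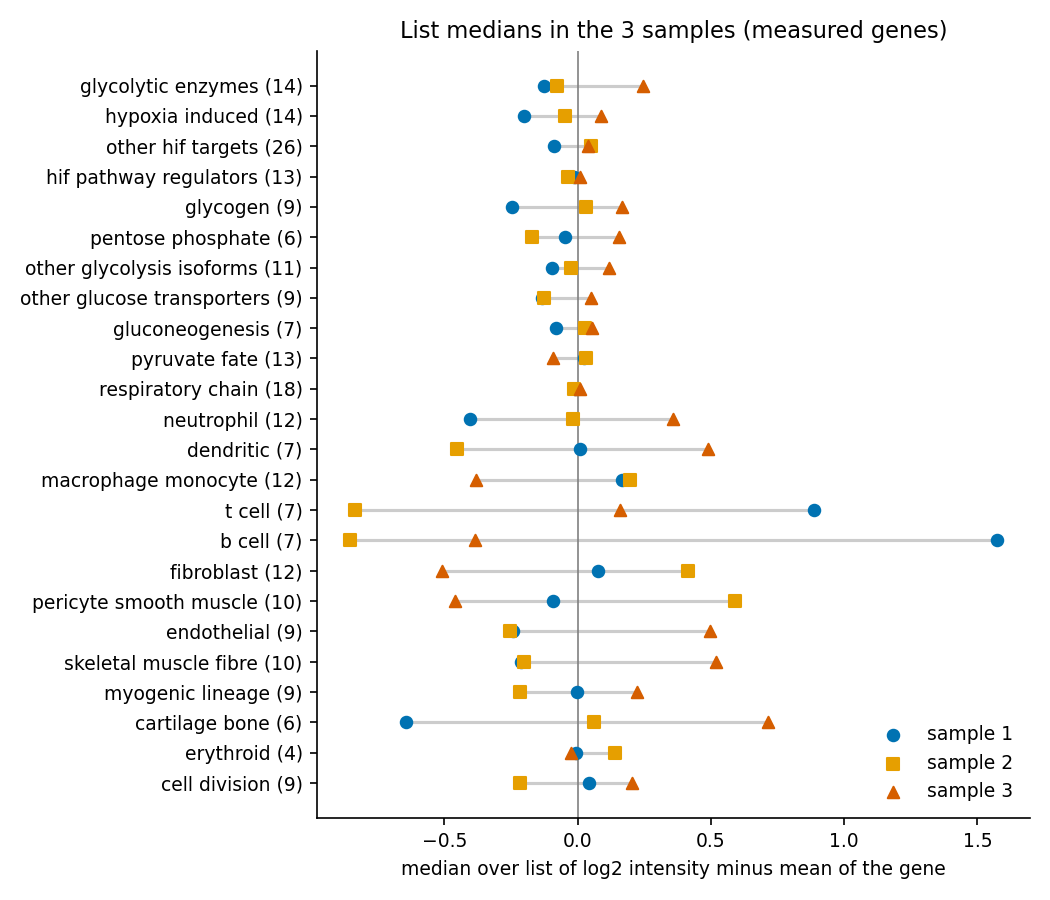
Median over each list of log2 intensity minus the gene's mean (x axis) in samples 1 (circles), 2 (squares) and 3 (triangles), with the number of measured genes in brackets. Sample 3 is the highest for the enzymes (0.25) and neutrophil markers (0.36) and the lowest for fibroblast markers (-0.51). Its medians are higher still for cartilage and bone (0.71), skeletal muscle fibre (0.52), endothelial (0.50) and dendritic markers (0.49). The respiratory chain medians lie between -0.013 and 0.0085.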

How the data were processed

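Gene expression was measured in 3 samples of sorted Dicer1 +/- stroma on 1 Affymetrix array each. The values deposited by the authors are log2 intensities of probe sets, the scale being judged from their span. Partek is named, per the submitters' processing notes, and how background, normalization and probe summary were handled is not given in the sources used here. Of 31873 probe sets, 23094 had 1 symbol in GEO's platform annotation, 1764 had several and 7015 were unnamed here. Gene type and promoter windows came from RefSeq (GRCm38.p6), matched by gene identifier and symbol. Detection, the range over samples, the highest sample and list medians were computed with Python 3.11.15 and pandas 2.3.3, after a check on simulated data. With 1 group no p-value was computed, and 3 arrays limit the precision.

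The members and gene lists were chosen with earlier results of these data known. All measured members were named. Of related lists, the first 3 measured genes and any gene with a range above 1 could be named, and of cell type lists the first 2. Ccr2 and Ly6c2 were named in addition, after their values were seen. Detection level, range limit, dim-gene filter, normalization, probe set summary and each sample in turn were varied.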

Additional observations from a re-analysis of the deposited data

How the results depend on the processing

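Detected counts stayed between 10 and 14 for the enzymes and between 9 and 14 for the hypoxia-induced genes under the other reference levels. The lowest counts, 10 and 9, came at the 99th percentile, where 38.1% of all genes were detected. At the 90th percentile all 14 genes of each list were detected, as were 71.99% of all genes. With the array median the counts were 13 and 13, against 57.38% of all genes. With the mean over arrays they were 13 and 14, against 63.38%. Sample 3 was the highest in 11 enzymes and 8 hypoxia-induced genes with quantile normalization, with equal medians of detected genes and with the mean of probe sets. The 0.2 lead and the first 2 of these for the highest sample were chosen after seeing the data. Equal medians raised sample 3 against both others, so that setting could not lower these counts. Among the enzymes only Gapdh had several probe sets, so averaging them could change no other enzyme. The share of all genes highest in sample 3 was not computed under these settings. With a range limit of 1.5-fold 3 enzymes and 7 hypoxia-induced genes passed, as did 19.9% of all genes, which follows from the lower limit. Leaving out each sample in turn, 0 to 3 hypoxia-induced genes had a range above 1. The sample 1 median of that list was then -0.17 to -0.044 and its sample 3 median 0.066 to 0.17. These medians were measured from the mean over the 2 samples left, so they are not on the scale of the 3-sample medians. The range of Car9 was 0.31 with the mean of its probe sets, from 0.16, and that of Gapdh 0.083, from 0.25. The Gapdh mean takes in the probe set that lay below the receptor level on all 3 arrays. Its brighter probe sets had ranges of 0.25 and 0.21, both with sample 3 highest. No paired analysis was possible because there was 1 group. The table gives no detection calls, and differences of genes near the receptor level are compressed.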
